A study of Mus musculus with 2 samples.

Results

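The long noncoding RNAs Malat1, Neat1, Gas5, Snhg1, Snhg8, Snhg12, Miat and Dnm3os were followed in adult mouse bladder as 8 named genes, of 43346 Ensembl genes in the tables. They were chosen by name, as abundant nuclear RNAs and hosts of small nucleolar RNAs (snoRNAs). No value measured here entered that rule, though earlier results of these data were known. That they are abundant did not hold for Miat and Dnm3os, which averaged 1.35 and 2.08 TPM (TPM is a level scaled to transcript length and library total). Of the 8, 6 had a row in both mm10 gene tables. Snhg1 and Snhg8 had none, so these hosts are described from splice junctions and contigs on mm9.

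The libraries form 1 group, the urinary bladder of C57BL/6J mice of mixed sex at 8 weeks of age, with replicate 2 and replicate 1. The labels name no treatment and no altered gene. Both replicates name the same donor entry and littermates, and the number of animals in each is not stated, so the spread between them may be partly technical. RNA was selected for a poly(A) tail and for a size over 200 nucleotides.

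Long noncoding RNAs act as RNA rather than as protein templates. Malat1 gathers in nuclear speckles, the stores of splicing factors, and Neat1 is the scaffold around which paraspeckles form. The snoRNA hosts carry in their introns the small RNAs that guide methylation (box C/D) or pseudouridylation (box H/ACA) of ribosomal RNA. Once the snoRNAs have been cut from the introns, the spliced host RNA is exported, and for Gas5 it is known to be destroyed by nonsense-mediated decay, a pathway that removes RNAs with early stop codons. Miat is a spliced nuclear RNA that binds splicing factors in neurons. Dnm3os is the primary transcript of 2 microRNA genes and lies inside the Dnm3 gene on the opposite strand.

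Expected counts on genes summed to 105057347 in replicate 2 against 99367453 in replicate 1. All 10 markers of urothelium, smooth muscle and fibroblasts were detected in both libraries, with Acta2 of smooth muscle at 8508 TPM in replicate 2 against 8841 TPM in replicate 1, and Upk1a of urothelium at 2342 and 1612 TPM in the same order. Smooth muscle markers were not alike. Myh11 had 1170 TPM in replicate 2 against 2113 TPM in replicate 1 (log2 ratio -0.85). Des had 1372 against 1876 TPM (-0.45), so both were lower in replicate 2 as Malat1 was. Acta2 (-0.06) and Actg2 (-0.09) of smooth muscle differed little. The fibroblast markers Col3a1 (-0.17) and Dcn (0.18) went in opposite directions. Of 9 markers of other cells, 6 were detected, and their summed level was 1471 TPM in replicate 2 against 934 TPM in replicate 1. Most of that difference lay in Fabp4, at 1093 TPM in replicate 2 against 587 TPM in replicate 1. Ckm (259 TPM in replicate 2, 263 TPM in replicate 1) and Pecam1 (35.9 and 46.3 TPM) were lower in replicate 2. Ptprc had 8.88 and 8.56 TPM in the same order. The adipocyte gene Adipoq (58.9 TPM in replicate 2, 23.4 TPM in replicate 1) and the mesothelial gene Msln (15.3 and 6.24 TPM) were past a fold of 2, while Umod of kidney and Svs4 of seminal vesicle were listed at 0 in both. The part of cell makeup in the ratios given here was not tested. In bulk tissue, fewer cells of a type and less RNA per cell cannot be told apart.

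The starts of the snoRNA hosts are shown first because transcripts of this class are known for a terminal oligopyrimidine tract, an unbroken stretch of C and T at the cap. Each line holds 20 bases before and 30 bases from the RefSeq start on GRCm38.p6, on the transcribed strand, with the stretch that covers the first transcribed base in capitals. The windows are chr1:161035146-161035195 for the downstream of 2 RefSeq starts of Gas5, chr19:8723467-8723516 for Snhg1, chr3:123508307-123508356 on the minus strand for Snhg8, chr4:132308658-132308707 for Snhg12 and, as a start outside the class, chr19:5802643-5802692 on the minus strand for Malat1.
Gas5: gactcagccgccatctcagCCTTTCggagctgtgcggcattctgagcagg
Snhg1: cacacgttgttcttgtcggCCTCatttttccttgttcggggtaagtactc
Snhg8: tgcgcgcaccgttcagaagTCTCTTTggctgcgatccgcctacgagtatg
Snhg12: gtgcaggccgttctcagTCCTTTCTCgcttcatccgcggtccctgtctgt
Malat1: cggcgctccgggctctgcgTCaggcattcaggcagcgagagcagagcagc
The stretch measured 6 bases at this start of Gas5, 4 bases in Snhg1, 7 in Snhg8 and 9 in Snhg12, against 2 in Malat1. These lengths, and those below, count C and T on both sides of the start. In every window shown the stretch opens before the first transcribed base, so its transcribed part is shorter. The start of Snhg1 shown lies 12 bases from the gene start, and the intron that opens after it, at an offset of 32 bases, had 57 junction reads, against 1087 to 1371 for the other introns of Snhg1 with at least 10 reads. A stretch of at least 5 bases over the first base was found at 10.1% of 32851 RefSeq starts. It was not particular to hosts, since Miat had 7 bases and Dnm3os 16, and the upstream RefSeq start of Gas5 had none because its first base is G. Neat1 had no entry in the table of starts.

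Among the members with a TPM value, Neat1, Gas5 and Malat1 were high, Snhg12 was intermediate, and Dnm3os and Miat were near the detection level of 1 TPM. Neat1, which lies at chr19:5824708-5845478 on mm10, was at 493 TPM in replicate 2 against 482 TPM in replicate 1. Gas5, at chr1:161034422-161038539, was at 534 TPM in replicate 2 against 426 TPM in replicate 1. Malat1, at chr19:5795690-5802672, was at 212 TPM in replicate 2 against 549 TPM in replicate 1. The order of these 3 was therefore not the same in both libraries, with Gas5 first and Malat1 last of them in replicate 2, and Malat1 first and Gas5 last of them in replicate 1.

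Snhg12, at chr4:132308623-132311024, was at 55.6 TPM in replicate 2 against 37.6 TPM in replicate 1. Dnm3os, at chr1:162217623-162225550, was at 2.18 TPM in replicate 2 against 1.97 TPM in replicate 1. Miat, at chr5:112213228-112229395, was at 1.91 TPM in replicate 2 against 0.79 TPM in replicate 1. Malat1 lay above Snhg12 and Snhg12 above Dnm3os in both libraries with deposited intervals that did not overlap, whereas the intervals of Dnm3os and Miat overlapped. The confidence level of these intervals is not stated in the tables.

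**Figure D1:**
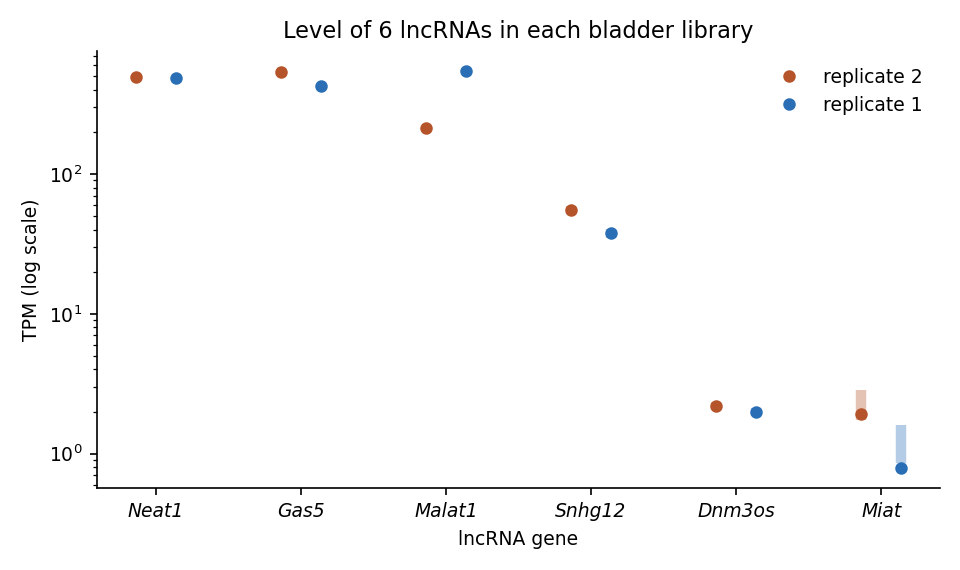
TPM on a log axis for the 6 lncRNAs with a gene row, with replicate 2 left of replicate 1 for each gene; points are the deposited values and shaded bars the deposited intervals, most of which are smaller than the point. Malat1 is the gene whose points lie farthest apart, at 212 TPM in replicate 2 against 549 TPM in replicate 1, and the interval of Miat in replicate 1 (0.854 to 1.61 TPM) lies above its point of 0.79 TPM.

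As means over both libraries the levels were 488 ± 7.47 TPM for Neat1, 480 ± 76.0 TPM for Gas5, 381 ± 238 TPM for Malat1, 46.6 ± 12.7 TPM for Snhg12, 2.08 ± 0.15 TPM for Dnm3os and 1.35 ± 0.79 TPM for Miat (SD, n = 2). By mean TPM among annotated lncRNA genes, Neat1 ranked 4, Gas5 ranked 5, Malat1 ranked 6 and Snhg12 ranked 33 of 5694. Detection at 1 TPM in both libraries held for 5 of the 6 members, against 32.7% of all genes and 9.64% of lncRNA genes, and nothing is read from this because abundance was a reason for their choice. Together the 6 took 0.141% of the gene TPM in replicate 2 and 0.160% in replicate 1. Long members weigh more in fragments, since Malat1 was assigned 121072 fragments in replicate 2 against 284698 in replicate 1, and Gas5 19597 against 12497.

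Malat1 was the member that differed most between the libraries. Its log2 ratio, replicate 2 over replicate 1, was -1.37, which is 2.59-fold lower in replicate 2, and it was the 1 member of 6 past a fold of 2. Of 14533 genes averaging 1 TPM or more, 1.58% were past that fold in either direction and 1.14% were past it and lower in replicate 2. In all, 80 of these genes had a ratio as low as that of Malat1 or lower. Of 604 lncRNA genes, 2.48% were past the fold in either direction, and 0.447% of all genes were past it and higher in replicate 2, where no member was. Malat1 took 0.115% of the gene counts in replicate 2 and 0.287% in replicate 1.

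The other members were within the fold. The log2 ratio was 0.03 for Neat1, 0.32 for Gas5, 0.56 for Snhg12, 0.90 for Miat and 0.12 for Dnm3os. All genes had a median of 0.08 and a central 90% from -0.56 to 0.54, and lncRNA genes a median of 0.23. The pseudocount of 0.5 shrinks the ratio of low genes, and by TPM without it Miat was 2.42-fold higher in replicate 2. The sign of Neat1 depended on the scaling, with -0.04 after TMM scaling of the counts. Miat passed the fold with a pseudocount of 0.1, where its log2 ratio was 1.18, and after removal of the length trend, where it was 1.11. Its ratio was lower, and within the fold, with a pseudocount of 1 (0.70). The same held for counts scaled by TMM (0.64) or DESeq2 size factors (0.64) and in CPM (0.76).

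Length moved with the ratio between these libraries. Across genes Spearman's rho of the ratio with effective length was -0.35 (n = 14533 genes, which share the same 2 libraries), and 817 genes with an effective length of at least 6000 nucleotides had a median log2 ratio of -0.16, with 13 of them (1.59%) past a fold of 2 and lower in replicate 2. Malat1 has an effective length of 6719 nucleotides, and its log2 ratio was -1.18 after the length trend was removed. Miat and Dnm3os, with effective lengths of 7295 and 7721 nucleotides, had log2 ratios of 0.90 and 0.12.

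**Figure D2:**
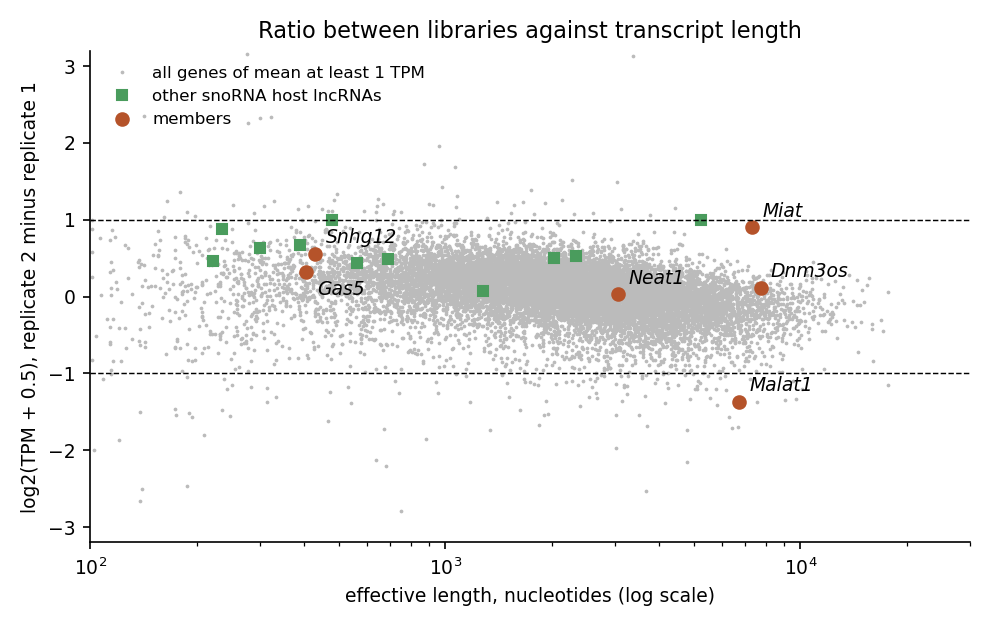
Log2 ratio of TPM + 0.5, replicate 2 minus replicate 1, against effective length on a log axis, for 14533 genes (grey), 12 other snoRNA host lncRNAs (green squares) and 6 members (orange circles); dashed lines mark a fold of 2. Malat1 lies below the lower line at -1.37, and the longest members Miat and Dnm3os lie above 0; a few genes fall outside the axes.

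Ratios between members carry the difference of Malat1. Neat1 over Malat1 had a log2 ratio of 1.21 in replicate 2 and -0.19 in replicate 1, so the sign turned between libraries. Gas5 over Malat1 had 1.33 in replicate 2 and -0.36 in replicate 1. Ratios without Malat1 were closer, at 0.12 in replicate 2 and -0.18 in replicate 1 for Gas5 over Neat1, and at 3.26 and 3.50 in the same order for Gas5 over Snhg12. Miat over Dnm3os stood at -0.19 in replicate 2 and -1.32 in replicate 1.

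Malat1 was read almost wholly as its long unspliced transcript. Malat1-201, of 6983 nucleotides, held 98.9% of the TPM of Malat1 in replicate 2 and 99.3% in replicate 1. Inside its span the mm9 junctions held 686 reads on 304 lines, of which 163 lines had 1 read, against 405770 fragments assigned on mm10, or 1.69 junction reads per 1000 fragments. The most read junctions held 63, 22 and 15 reads, and the one with 22 is annotated, as the intron of Malat1-204. The contig over Malat1 had a mean of 10372 covered bases per base, a depth reached by 42 of 124587 contigs of at least 1000 bases, and it ran 1549 bases past the annotated end.

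Neat1 too had 1 form with most of its TPM, here a short one of 3. Neat1-202, of 3004 nucleotides, held 90.3% of the TPM in replicate 2 and 91.7% in replicate 1, and the full-length Neat1-201, of 20771 nucleotides, held 2.28% and 2.20% in the same order. In mouse and human the long form, which builds paraspeckles, ends without a usual poly(A) tail, and poly(A) selection came before these measurements. Counted as fragments, Neat1-201 held 36479 expected counts over both libraries and Neat1-202 held 201239. One contig covered the whole gene, from 459 bases before its start to 1343 bases past its end, at a mean of 2418 covered bases per base.

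The spliced forms of Neat1 had few junction reads. The intron of 166 bases that Neat1-202 shares with Neat1-203 was crossed by 146 reads, and the intron of 143 bases found in Neat1-203 alone by 680 reads. The tables assigned 201239 expected counts to Neat1-202 and 4428 to Neat1-203, an order opposite to that of the junction reads. Over the gene junction reads amounted to 4.57 per 1000 fragments, so the split among these forms is uncertain. The next junction had 11 reads, and 92 of the 163 lines had 1 read.

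The annotated ends of these transcripts are shown for the polyadenylation signal AATAAA, in capitals, in the last 60 bases from GENCODE M21. They lie at chr19:5795690-5795749 for Malat1-201, chr19:5842307-5842366 for Neat1-202 and chr19:5824708-5824767 for Neat1-201, all on the minus strand of mm10.
Malat1-201: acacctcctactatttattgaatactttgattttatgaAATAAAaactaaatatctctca
Neat1-202: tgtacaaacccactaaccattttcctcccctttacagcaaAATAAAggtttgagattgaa
Neat1-201: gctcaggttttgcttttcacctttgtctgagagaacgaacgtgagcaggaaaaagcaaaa
The hexamer stands 16 bases before the end of Malat1-201 and 14 bases before that of Neat1-202. It is absent from the last 60 bases of Neat1-201, which close in an A-rich run. Of 141515 transcripts in the annotation, 27.2% hold it in that window. Whether Malat1 RNA ends at its annotated site or carries a poly(A) tail was not measured. RNA without such a tail can be lost in the poly(A) selection, so the TPM of Malat1 covers the part that was kept.

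Gas5 had the most junction reads of the members. Its span held 62272 junction reads on 112 lines, of which 97.6% were on annotated introns, and all 16 annotated introns had reads. The most read junctions held 16066, 10298 and 6531 reads, and the first of these was reached by 0.331% of the 187590 junctions with at least 10 reads. The 6531 reads cross the first intron of 15 annotated transcripts, which opens 29 bases after the downstream RefSeq start, at an offset of 773 bases from the gene start. The first intron of Gas5-217, which starts upstream, had 20 reads.

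Reads were uneven along Gas5. The introns with 16066 and 10298 reads hold snoRNAs, Gm22489 and Gm22357, and the introns that hold Snord47 and Gm25789 near the 3′ end had 3750 and 3505 reads. Each snoRNA was assigned to the most read annotated intron around it. On that basis Snord78, with 2186 reads, and Gm23212, with 2676 reads, had the lowest values. Snord78 also lies in the intron of 271 bases, with 1626 reads, that is spliced when the cassette exon described next is included. The low place of Snord78 therefore depends on this assignment. The 9 introns assigned in this way ranged over 7.35-fold.

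A cassette exon of 41 bases was the main splicing choice of Gas5. It lies at chr1:161037124-161037164 on mm10, in Gas5-219, Gas5-220 and Gas5-224, after the intron stretch that holds Snord78. The exon is printed in capitals with 15 bases of the neighbouring exons of Gas5-224.
Gas5 cassette exon: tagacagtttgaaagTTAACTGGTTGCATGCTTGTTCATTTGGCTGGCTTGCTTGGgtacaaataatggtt
Its upstream junction had 908 reads in the second and 718 in the first of the values deposited for each junction, its downstream junction had 743 and 693, and the junction that skips it had 1232 and 954. Inclusion, as the mean of both flanking junctions over that mean plus the skipping reads, was 40.1% in the second value and 42.5% in the first. No label ties these values to a replicate number.

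The transcript tables also spread Gas5 over many forms. Gas5-224, which includes the exon, held 28.5% of the TPM of Gas5 in replicate 2 and 26.5% in replicate 1, and Gas5-210, which skips it, 18.6% and 20.2%. Gas5-201 held 12.9% in replicate 2 and 9.14% in replicate 1, and Gas5-209 held 7.78% in replicate 2 and 22.3% in replicate 1. Forms annotated with a retained intron, 20 of 25, together took 44.8% in replicate 2 and 30.5% in replicate 1. The long intron of Gas5-209, which Gas5-217 shares, had 22 junction reads. An unannotated junction with the same end that opens 1 base earlier had 428, so the share of Gas5-209 is uncertain. The 3′ end of Gas5 is overlapped on the other strand by a contig of 47.1 covered bases per base, against 1607 on its own strand, and the strand setting of the quantification is not stated.

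**Figure D3:**
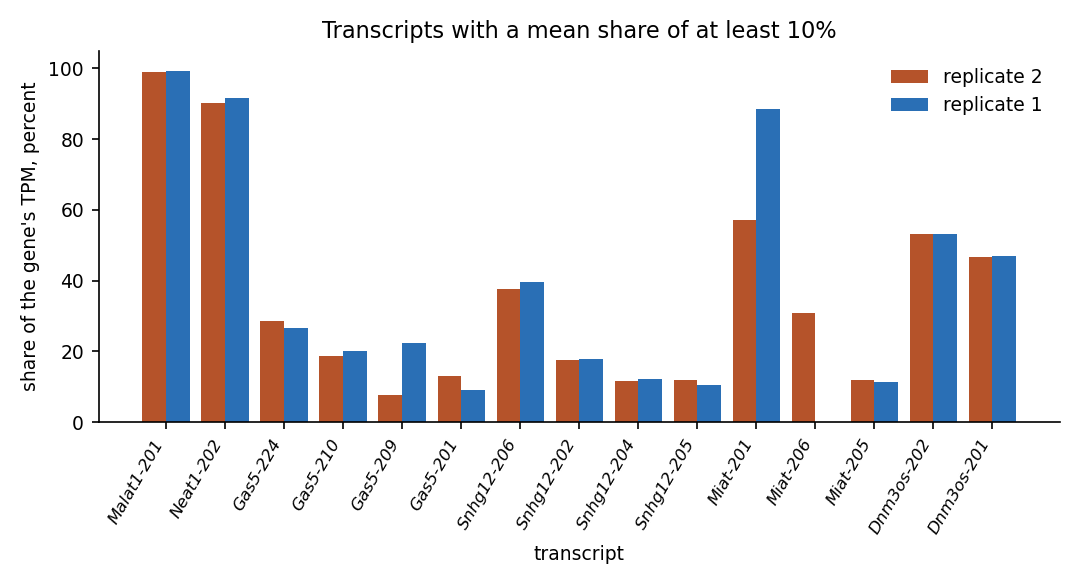
Share of the TPM of each gene held by the transcripts averaging 10% or more, in percent, with replicate 2 left of replicate 1. Malat1-201 and Neat1-202 take over 90% in both libraries, while Miat-201 (57.1% in replicate 2, 88.6% in replicate 1), Miat-206 (30.9% in replicate 2, 0% in replicate 1) and Gas5-209 (7.78% in replicate 2, 22.3% in replicate 1) differ most between them.

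Snhg1, at chr19:8723475-8726443 on mm10, was spliced evenly. Its span held 10169 junction reads on 33 lines, and 99.5% of them were on annotated introns. Of its introns, 8 had 1087 to 1371 reads, a range of 1.26-fold, and 7 of these 8 each hold a snoRNA gene. The 3 most read junctions had 1371, 1366 and 1342 reads and hold Gm22680, Gm25894 and Gm24453. The intron of 634 bases that joins the farthest upstream exon and holds Gm25855 had 57 reads. The contig over Snhg1 had a mean of 383 covered bases per base.

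Snhg8, at chr3:123507552-123508404, is the shortest of the hosts and has 2 annotated introns. The intron with the H/ACA snoRNA Snora24 had 3462 reads and the second intron 592, a ratio of 5.85. The next junction, unannotated, had 20 reads. Its contig reached 1311 covered bases per base, a depth found in 593 of 124587 contigs of at least 1000 bases, between Gas5 at 1607 and Snhg12 at 440 and 321 in 2 contigs.

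Snhg12, a host with snoRNAs of both classes, was read most at its 5′ intron and least at its 3′ intron. Its introns had 1284 reads over Snora16a, 812 over Snora44, 474 over Snora61 and 358 over Snord99, a range of 3.59-fold. Both deposited values show this order, with 738, 471, 281 and 259 reads in the second value and 546, 341, 193 and 99 reads in the first. Snhg12-206, which has the introns of Snora16a, Snora44, Snora61 and Snord99, held 37.5% of the TPM in replicate 2 and 39.6% in replicate 1. Snhg12-202 held 17.7% in both libraries, and Snhg12-204 and Snhg12-205 had mean shares of 12.0% and 11.3%.

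**Figure D4:**
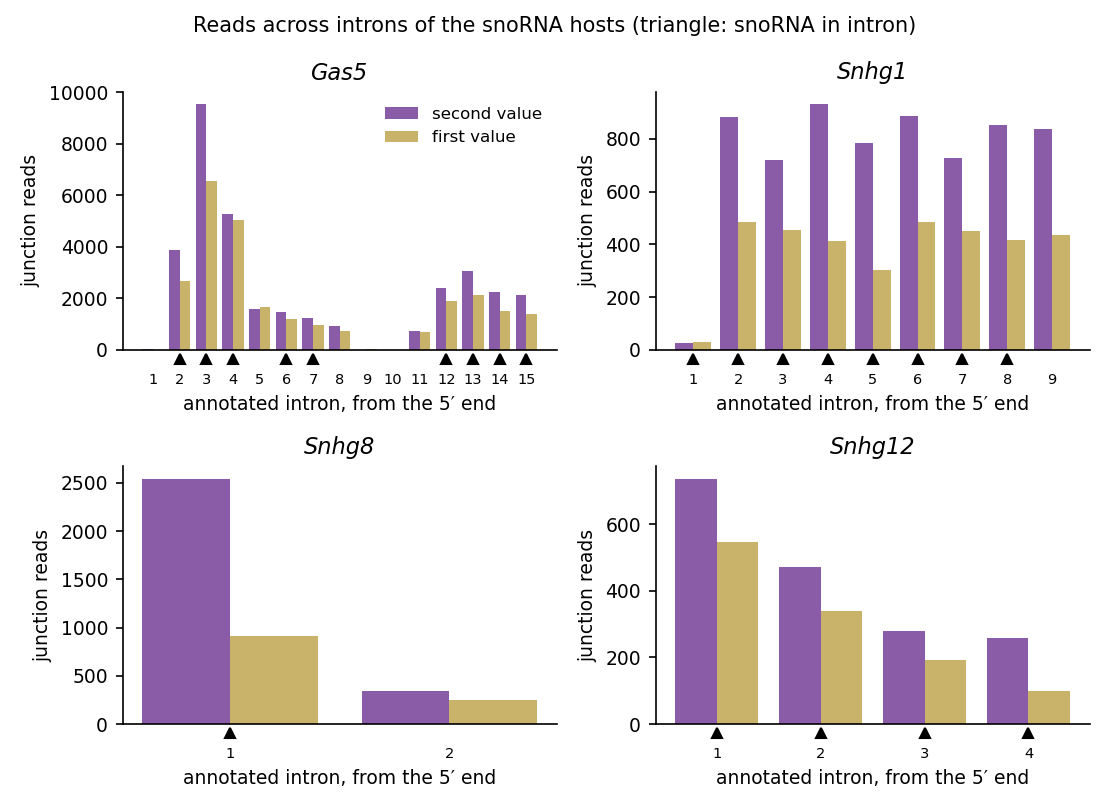
Reads across each annotated intron with at least 10 reads, in order from the 5′ end, in Gas5, Snhg1, Snhg8 and Snhg12. The second deposited value stands left of the first, and bars start at 0. Triangles mark the most read annotated intron around each snoRNA gene. Snhg1 is even over 8 introns (1087 to 1371 reads in sum), Snhg12 is highest at its first intron (1284 reads) and lowest at its last (358 reads), and Gas5 peaks in its early introns.

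Hosts can be set side by side by the median reads over their annotated introns with at least 10 reads, which were 3205 in Gas5, 2027 in Snhg8, 1271 in Snhg1 and 643 in Snhg12. Gas5 over Snhg1 had a log2 ratio of 0.90 in the second value and 1.67 in the first. Snhg1 over Snhg8 had -0.78 in the second value and -0.43 in the first, and Snhg8 over Snhg12 had 1.94 and 1.13 in the same order. The order of the 4 hosts by median was thus the same in both values, though Snhg8 rests on 2 introns that differ by 5.85-fold. The median of Gas5 includes introns with 17, 20 and 22 reads and both choices at its cassette exon. Snhg1 and Snhg12 were closer by their most read introns, at 1371 and 1284 reads. By contigs Snhg1, at 383 covered bases per base, lay between the 2 of Snhg12, at 440 and 321.

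The snoRNAs themselves were not measured. The introns of the 4 hosts hold 22 annotated snoRNA genes of 60 to 137 bases, 9 in Gas5, 8 in Snhg1, 1 in Snhg8 and 4 in Snhg12, all under the size selected for. The one called Mir5117 in the annotation is of snoRNA type. Every one with a row was listed at 0 TPM in both libraries, and 1, Snord22 of Snhg1, had 1.87 expected counts in replicate 1. As examples of the classes, Gm26224 and Snora24 are printed. Gm26224, from the first main intron of Gas5 at chr1:161035394-161035473, has every match of TGATGA (motif of box C) and CTGA (motif of box D) in capitals. Which of these matches are the boxes themselves was not tested. Snora24 of Snhg8, at chr3:123507937-123508066 on the minus strand, has in capitals its ACA box, which stands 3 bases before the end.
Gm26224: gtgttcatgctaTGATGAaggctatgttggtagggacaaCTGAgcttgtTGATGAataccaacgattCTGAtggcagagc
Snora24: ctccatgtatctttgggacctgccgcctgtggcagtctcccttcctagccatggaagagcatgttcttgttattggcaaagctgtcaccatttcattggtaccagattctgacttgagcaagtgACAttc
On the strand of the snoRNA, TGATGA and CTGA both occur in 14 of the 22, 7 of them in Gas5 and 6 in Snhg1, and in 25.2% of 1507 annotated snoRNAs. ACA at that distance from the end occurs in 4 of the 22 and in 18.3% of all.

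Miat was low and spliced. Its span held 184 junction reads on 16 lines, of which 84.2% were on annotated introns, and it had 123 junction reads per 1000 fragments, between the values of Malat1 and Neat1 and those of Snhg12 (901) and Gas5 (1940). The most read introns had 38, 28 and 24 reads. Miat-201, of 8758 nucleotides, held 57.1% of the TPM in replicate 2 and 88.6% in replicate 1. Miat-206, of 357 nucleotides, held 30.9% in replicate 2 from 7.33 expected counts and 0% in replicate 1, so part of the TPM ratio of Miat rests on these few counts. By counts scaled to the gene total, Miat had 9.28 CPM in replicate 2 and 5.29 CPM in replicate 1. Its longest contig, of 7011 bases over the 3′ part, had a mean of 44.5 covered bases per base.

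Dnm3os was low and almost unspliced. Its expected count was 1432 in replicate 2 against 1170 in replicate 1, with 9 junction reads in all, on 6 lines of at most 3 reads. Dnm3os-202 and Dnm3os-201, of 7926 and 7928 nucleotides, took 53.1% and 46.9% of its TPM on average, and forms this alike cannot be told apart by short reads. The contig on its strand covered it from 98 bases before its start to an offset of 6235 bases at a mean of 92.0 covered bases per base, and contigs on the opposite strand, that of Dnm3, reached 3.93. The part of Dnm3 intron reads in its TPM was not tested.

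The microRNAs that Dnm3os carries are printed with their seeds, bases 2 to 8, in capitals, as RefSeq gives them on GRCm38.p6. They lie on the plus strand at chr1:162217844-162217866, chr1:162217883-162217904, chr1:162223397-162223418 and chr1:162223438-162223459.
mmu-miR-199a-5p: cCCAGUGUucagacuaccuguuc
mmu-miR-199a-3p: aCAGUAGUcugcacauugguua
mmu-miR-214-5p: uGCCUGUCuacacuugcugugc
mmu-miR-214-3p: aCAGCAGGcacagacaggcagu
The miR-199a pair starts 221 and 260 bases and the miR-214 pair 5774 and 5815 bases from the start of Dnm3os, both within the contig. No seed is shared among the 4. The hairpin genes Mir199a-2 and Mir214 were listed at 0 TPM in both libraries.

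The mm9 values allow the libraries to be seen a second time. In RPKM, which is also scaled to length and depth, Malat1 had 54.9 in the second value and 135 in the first, and it was the 1 of 4 members with a mean of at least 1 RPKM past a fold of 2, as were 1.97% of 10919 genes. Neat1 had 43.6 RPKM in the second value and 27.8 in the first, Gas5 21.4 and 12.3, Snhg12 6.02 and 4.46, and Dnm3os 0.628 and 0.430 in the same order. Malat1 was thus first in the order by mean RPKM, though by mean TPM it stood below Neat1 and Gas5.

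Junction reads scaled to the 60510166 of the second value and the 53589498 of the first gave both hosts without a TPM a ratio. Snhg8 had 47.9 reads per 1000000 in the second value and 22.1 in the first, a log2 ratio of 1.11. Its introns differed, since the one with Snora24 had 2545 reads in the second value and 917 in the first, a scaled log2 ratio of 1.30, and the other had 339 and 253 in the same order, a scaled log2 ratio of 0.25. The call of Snhg8 therefore rests on 1 of its 2 introns. Snhg1 had 111 in the second value and 64.9 in the first, a log2 ratio of 0.77. Gas5 stood at 0.21, Snhg12 at 0.40 and Neat1 at -0.04 on the same scale. Of these 5 members with at least 1000 junction reads, Snhg8 was the 1 past a fold of 2, as were 1.66% of 9534 Ensembl genes, whose median was 0.08.

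The related genes were read from lists. Of 16 other snoRNA host lncRNAs, 12 had a row and all 12 were detected, with a median level of 37.8 TPM, against 14.4 TPM over genes averaging 1 TPM or more. The highest levels were those of Snhg20 (142 TPM in replicate 2, 71.0 TPM in replicate 1), Zfas1 (77.3 and 57.1 TPM) and Snhg3 (78.2 and 42.2 TPM). Their median log2 ratio was 0.51, or 0.43 above that of all genes, and it ranged from 0.44 to 0.56 over other settings. The 604 lncRNA genes averaging 1 TPM or more had a median of 0.23, so lncRNAs as a class also lay above all genes. None was past a fold of 2, though Snhg20 (1.00) and Snhg11 (0.99) were at its edge. Snhg11 passed it with a pseudocount of 0.1 (1.00), in CPM (1.04) and with the length trend removed (1.11). Removal of the length trend also put Snhg9, which had 3 expected counts in replicate 2 against 5 in replicate 1, at 1.64, against -0.28 before it. Gas5 (0.32) lay below and Snhg12 (0.56) just above the median of these hosts (0.51).

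Of 22 other known lncRNAs, 20 had a row and 17 were detected. The imprinted Meg3 (905 TPM in replicate 2, 465 TPM in replicate 1) and Rian (375 and 186 TPM) and the mesenchymal Fendrr (170 and 133 TPM) were highest. Meg3 lay above every member in replicate 2 and between Gas5 and Neat1 in replicate 1, and Rian was the 1 gene of the list past a fold of 2, at a log2 ratio of 1.01. Rian was within the fold after TMM scaling (0.95), with DESeq2 size factors (0.95) and with the length trend removed (0.84), and Meg3 joined it past the fold in CPM (1.05). Hotairm1, Kcnq1ot1 and Tsix were under 1 TPM, at means of 0.695, 0.395 and 0.125 TPM. The list's median log2 ratio was 0.29.

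Genes for the proteins that work on these RNAs, here named by protein, were all detected as RNA, and no protein was measured. Of 16 paraspeckle proteins, among them Hnrnpk (430 TPM in replicate 2, 340 TPM in replicate 1) and Tardbp (302 and 175 TPM), none was past a fold of 2, and their median log2 ratio was 0.01. Of 15 nuclear speckle and splicing proteins, led by Srsf5 (713 TPM in replicate 2, 537 TPM in replicate 1), Srrm2 (405 and 377 TPM) and Srsf2 (322 and 223 TPM), none was past the fold, and their median log2 ratio was 0.30. Malat1 at -1.37 lay below every gene of the speckle list, whose lowest, Srrm1, was at -0.52. Nothing is read from this order, since 80 of 14533 genes were as low as Malat1 or lower.

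The snoRNP proteins, which bind and stabilise snoRNAs, were led by Nop10 (109 TPM in replicate 2, 70.8 TPM in replicate 1), Snu13 (98.5 and 78.9 TPM) and Nop56 (80.6 and 52.1 TPM), and the 12 had a median log2 ratio of 0.30. The 14 nonsense-mediated decay factors were led by the exon junction proteins Eif4a3 (90.9 TPM in replicate 2, 74.2 TPM in replicate 1) and Magoh (66.7 and 58.6 TPM) and by Smg5 (44.0 and 39.6 TPM), with a median log2 ratio of 0.01. None of these 26 genes was past a fold of 2.

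**Figure D5:**
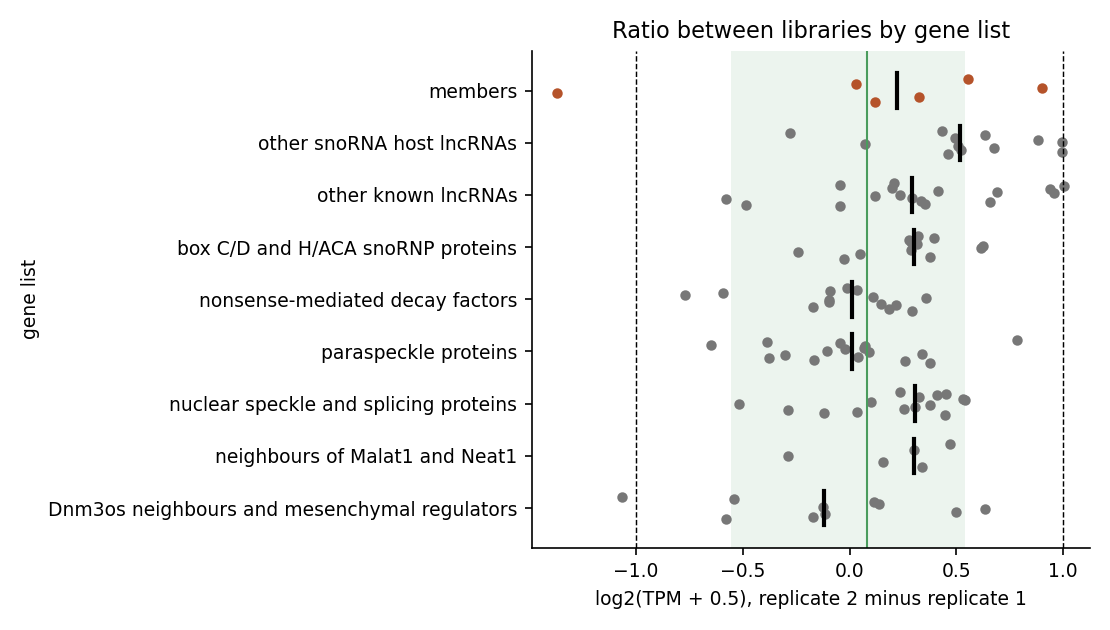
Log2 ratio of TPM + 0.5, replicate 2 minus replicate 1, for each gene averaging 1 TPM or more in 9 lists; black bars are list medians, the green line and band the median (0.08) and central 90% (-0.56 to 0.54) of all genes, and dashed lines a fold of 2. The other snoRNA hosts have the highest median (0.51), and Malat1 is the point farthest to the left.

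Genes beside Malat1 and Neat1 were within the fold. Of 6 neighbours of Malat1 and Neat1 on chromosome 19, 5 were detected, among them Dpf2 (75.2 TPM in replicate 2, 59.4 TPM in replicate 1) and Ltbp3 (38.4 and 47.0 TPM), with none past a fold of 2, and Tigd3 had a mean of 0.555 TPM. Around Dnm3os, its host gene Dnm3 was at 3.17 TPM in replicate 2 against 3.63 TPM in replicate 1. Of the 10 genes in that list of neighbours and mesenchymal regulators, led by Col1a1 (716 TPM in replicate 2, 1071 TPM in replicate 1), Zeb2 (13.5 and 28.8 TPM) and Zeb1 (16.5 and 24.2 TPM), Zeb2 was past a fold of 2 at a log2 ratio of -1.07. It was within the fold in all settings based on counts (-0.89 with TMM, -0.89 with DESeq2 size factors, -0.77 in CPM) and with the length trend removed (-0.92).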

How the data were processed

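Polyadenylated RNA of adult mouse bladder was read in 2 stranded paired-end libraries with reads of 101 bases, per the labels. Per the labels, each library has a table of genes and one of transcripts, quantified by the authors against GENCODE M4 on mm10. Per the file headers these hold an expected count, which is an estimated number of fragments and need not be whole, and TPM, once by maximum likelihood and once as the posterior mean. The authors also deposited mm9 tables for the series: 2 RPKM values per Ensembl gene, the count of reads across each splice junction given as 2 numbers and their sum, and a contig signal, taken as covered bases because its minimum is the read length. Aligner, quantifier and strand setting: not given in the sources used here.

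Non-Ensembl rows (5.98% of the expected count of replicate 2, 5.01% of that of replicate 1) stayed out of all totals. Of 43346 genes, 42462 took symbols from GENCODE M21 by identifier. Ratios between the libraries are log2(TPM + 0.5), replicate 2 over replicate 1, over genes of mean at least 1 TPM. Since each side is 1 library, no test was run and a ratio was called only past a fold of 2. A cubic trend with log effective length was removed as an alternative. Members were placed on mm9 by the distance to genes with 1 identifier and length in both annotations, and Miat by the lengths and spacing of its introns, of which 8 of 10 fell at 1 distance and 1 at the next best. Junction reads were counted inside each member's span on its strand. Expected counts were rounded for the scaling alternatives in edgeR 4.0.16 and DESeq2 1.42.0 under R 4.3.3; the remaining work was done in Python 3.11.15, numpy 2.4.6, pandas 2.3.3, scipy 1.17.1 and matplotlib 3.10.9. The ratio and its length correction were run on simulated counts with a linear length trend and counting noise alone. A cubic trend includes a linear one, so this does not show how the correction acts on these libraries.

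The members and the 16 gene lists were chosen with earlier results of these data known. Text names all members, the 3 genes of highest mean TPM in every other list and those under 1 TPM where they are 5 or fewer, transcripts averaging 10% or more of their gene, and the 3 most read junctions per member. Alternatives were the posterior mean TPM, other pseudocounts, filters and scalings, each library alone, the mm9 values, and other read and detection minimums. Some genes that this rule names are not reported here. Assembled transcript models were not used here.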

Additional observations from a re-analysis of the deposited data

Results flagged for a closer look

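On the strand opposite to the hosts, 2 of the 22 snoRNA genes had a contig of which at least 50% lay inside them. The one over Gm26224 in Gas5 had 118.7 covered bases per base over 73 bases, all inside the snoRNA of 80 bases. The one over Snora24 in Snhg8 had 56.1 covered bases per base over 115 bases, 79 of them inside. Such contigs were found at 1.43% of 1187 annotated snoRNAs placed on mm9, against 9.09% of the 22, and these were the 2 at a depth of at least 50. The overlap minimum was chosen after the values were seen, and no control sample exists. That minimum leaves out the contig of 4463 bases opposite the 3′ end of Gas5, at 47.1 covered bases per base.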

How the results depend on the processing

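Malat1 ranked 3 among the members by mean TPM, 1 of 5 by mean mm9 RPKM, and from 1 to 3 when each library was left out in turn. Its log2 ratio between libraries ranged from -1.44 to -1.18 over 6 alternatives. The members past a fold of 2 numbered 1, beside 1.58% of genes. They numbered 2 with a pseudocount of 0.1 (2.13% of genes) or with the length trend removed (1.58%), Miat being added in both. Neat1 over Malat1, 0.51 as a mean log2 ratio, was -0.62 by expected counts and -1.31 by RPKM. Gas5 over Malat1, 0.48, was -3.57 and -2.41 on those scales, and Gas5 over Neat1, -0.03, was -2.95 and -1.10. Gas5 over Snhg12, 3.38, was 1.65 by RPKM. Expected counts are not scaled to length, which sets that change; the cause was not tested for RPKM. Chosen after seeing the data, the most read intron gave 3.55 for Gas5 over Snhg1, against 1.33 by the median intron, and -1.34 for Snhg1 over Snhg8, against -0.67. Junctions in the members numbered 56 with at least 10 reads, 658 with at least 1 and 30 with at least 100. Signs therefore turned for Neat1 over Malat1 and Gas5 over Malat1 on both scales. The single calls of Rian and Zeb2 in their lists ended with the length trend removed and with TMM or DESeq2 scaling, that of Zeb2 also in CPM; the cause was not tested. No paired analysis was possible because the series has 1 group. Depth limits Miat and Dnm3os most, whose junctions held at most 38 and 3 reads.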
